A study of Mus musculus with 20 samples.

Results

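The step from 10 nM to 100 nM of 21h10 was examined in activated mouse CD8+ T cells, as the 4 libraries of experiment 2 that carried 21h10 at either dose out of the 20 libraries of the series. The libraries were taken by their labels, with duplicates at 10 nM and duplicates at 100 nM. The step itself was chosen with earlier results of these data known. 21h10 is a computationally designed protein that acts on the interleukin-21 receptor, and mIL-21 is the native murine cytokine. RNA was sequenced from CD8+ T cells that had been taken by negative selection from the spleens of wild-type C57BL/6J mice aged 6 to 8 weeks. All cells, the unstimulated ones included, had been activated for 48 h with plate-bound anti-CD3 (2 µg/mL) and soluble anti-CD28 (1 µg/mL) and rested overnight. The treated groups were then kept for 24 h with cytokine, and the unstimulated cells had none. Experiment 2 held 5 groups of 2 libraries, which were unstimulated cells, mIL-21 at 10 nM and 100 nM, and 21h10 at 10 nM and 100 nM. The study's methods describe independent replicates of separate tissue preparations or donors for its RNA-seq. The labels call the 2 libraries of a group duplicates and tie neither to a mouse, and the p-values measure the spread between these libraries.

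IL-21 signals through a receptor made of IL-21R and the common gamma chain, which is shared with the receptors of IL-2, IL-4, IL-7, IL-9 and IL-15. JAK1 and JAK3 on these chains phosphorylate STAT proteins, chiefly STAT3 and also STAT5, which enter the nucleus and bind gene control regions. In CD8+ T cells the cytokine is known for raising granzymes and perforin and for shaping effector and memory states. IL-2 works through the same gamma chain with STAT5 as its main messenger, and Cish, Socs2, Bcl2, Il2ra and Nfil3 are among the genes tied to that arm.

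Between 27072917 and 43300094 reads fell on genes in each library of experiment 2. The share of mapped reads on genes was 71.0% and 68.5% at 10 nM of 21h10 and 69.8% and 66.2% at 100 nM, the low end of a range of 66.2% to 80.9% over the 10 libraries. Levels are given as CPM, counts put on 1 common library size and scaled by TMM, which evens out differences in RNA composition. Fold changes are log2 of 100 nM over 10 nM from the edgeR fit of all 10 libraries. Their standard error (SE) was worked out from the size of the fitted change and its test statistic. Of the 8 listed genes of CD8+ T cell identity, 7 were in the tables and tested, and 0 of them passed the threshold in the step (1 had an unadjusted p under 0.05). Cd8a stood at 574 and 563 CPM at 10 nM and at 488 and 495 CPM at 100 nM of 21h10. Among markers of macrophages and dendritic cells, Csf1r, Cd14 and C1qa reached at most 2 reads in a library, Lyz2 at most 12, and C1qb had 0 reads in all. Cd68, Itgam, Itgax, Fcgr3, Flt3 and Xcr1 of the same list were expressed enough to be tested. They summed to 127 to 132 CPM at 10 nM and 58.9 to 71.4 CPM at 100 nM of 21h10, most of it Itgam. Listed markers of B cells summed to 6.00 to 6.52 CPM at 10 nM and 7.10 to 7.52 CPM at 100 nM, and those of CD4+ and regulatory T cells to 70.0 to 74.1 CPM and 54.8 to 62.6 CPM, with 0 members of either list past the threshold by edgeR or DESeq2 and 0 and 2 at an unadjusted p under 0.05.

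Raising 21h10 from the lower to the higher dose moved genes in both directions, more of them downwards. At an adjusted p under 0.05, 734 of 13772 genes tested (5.33%) differed between 10 nM and 100 nM, of which 259 (1.88%) rose and 475 (3.45%) fell. The changes were moderate, with a median size of 0.53 on the log2 scale among the 734, and 121 reached a log2 fold change of 1, of which 65 rose and 56 fell. Over all genes tested the median was 0.00. The duplicates of the compared groups did not overlap for any of the 734 genes, and this also held for 7226 of all 13772 genes (52.5%). With 2 libraries against 2, an exact permutation test of a single gene cannot give a p below 0.333, so the calls rest on the spread shared across genes and libraries in the edgeR fit. In the 21h10 dose step, leaving out 1 library cut the count to 338 without replicate 1 and 279 without replicate 2 at 10 nM, and to 254 without replicate 1 and 288 without replicate 2 at 100 nM. In all, 177 calls (66 higher, 111 lower) were made in the same direction in every other fit tried, leaving aside a limit on fold size. These are called stable in what follows.

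**Figure D1:**
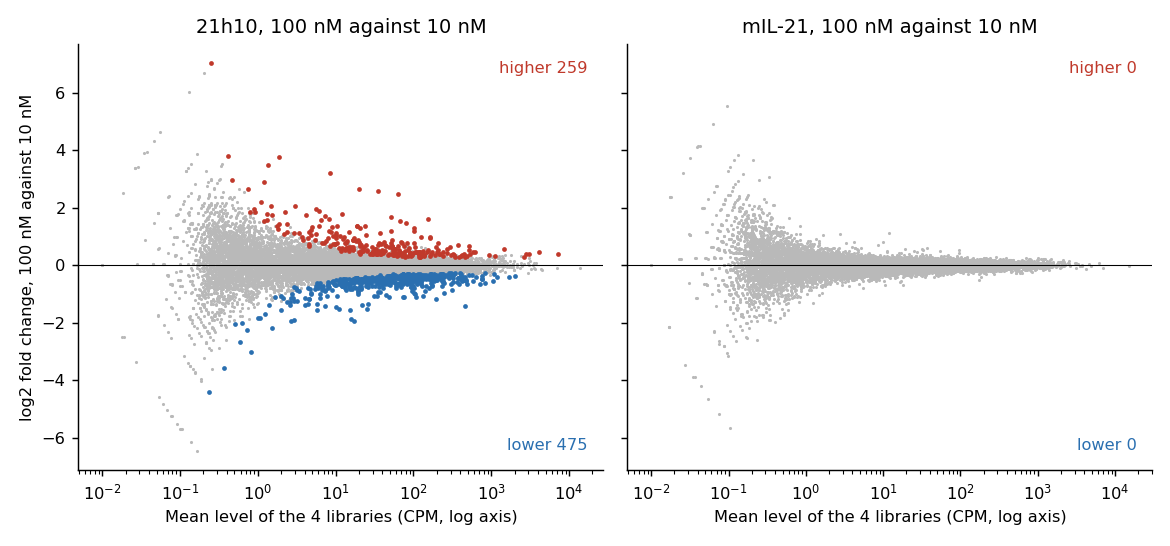
Each point is 1 of the 13772 genes, with its mean level over the 4 compared libraries on the horizontal axis (CPM, log axis) and its log2 fold change from 10 nM to 100 nM on the vertical axis, for 21h10 (left) and mIL-21 (right). Red points rose and blue points fell at an adjusted p under 0.05, and there are 259 red and 475 blue points for 21h10 and 0 of either for mIL-21.

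The genes that fell had longer transcripts, with a median of 4020 bases against 2638 for those that rose and 2802 over all genes tested. With the genes in 5 equal bins of transcript length, the median log2 fold change of the step went from 0.03 in the shortest bin to -0.05 in the longest, and in the mIL-21 step it was -0.01 in both. The longest bin held 49 of the rises and 175 of the falls, and the shortest 56 and 44. The part of length in the result was not tested.

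Il24 had the largest rise of the genes with a mean of at least 1 RPKM in the higher group, and Epas1 the smallest adjusted p of all genes tested. Under the same least RPKM, the 12 largest rises were those of Il24, Tspan9, Fam19a3, Epas1, Gm590, Plxdc2, Trat1, Zak, Gm6460, Gm6455, Mcf2l and Rgs1. Il24 (chr1:130882074-130887411, minus strand), a secreted member of the IL-10 cytokine family, was at 1.57 and 1.71 CPM at 10 nM and at 17.4 and 13.2 CPM at 100 nM (log2 fold change 3.22 ± 0.28 SE, adjusted p = 3.17e-06). In the other 6 libraries it ranged from 0.072 CPM in unstimulated cells to 1.29 CPM with mIL-21, so the 2 libraries at 100 nM of 21h10 stood far above all others.

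Epas1 (chr17:86753864-86833410, plus strand) encodes the hypoxia-inducible factor HIF-2α. It measured 18.9 and 19.8 CPM at 10 nM against 105 and 113 CPM at 100 nM (2.49 ± 0.11, adjusted p = 3.04e-09). Unstimulated cells, at 16.2 and 16.7 CPM, and cells with mIL-21, at 12.8 to 15.5 CPM, lay near the lower dose, and Epas1 had the smallest adjusted p of the genes named here. Tspan9, a tetraspanin of the cell membrane, stood at 5.42 and 5.58 CPM at 10 nM and at 35.3 and 33.3 CPM at 100 nM (2.64 ± 0.21, adjusted p = 1.34e-06). Its level was lower in all 4 mIL-21 libraries (4.02 to 6.45 CPM) than in unstimulated cells (12.9 and 18.7 CPM), and the 100 nM libraries of 21h10 lay above both. For Fam19a3, now named Tafa3 and encoding a small secreted protein, 9.05 and 10.9 CPM at 10 nM compared with 66.0 and 53.8 CPM at 100 nM (2.58 ± 0.15, adjusted p = 1.52e-07). Its transcript shares 6.13% of its exonic bases with Gm43584 on the same strand.

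Several of the other large rises were in genes of signalling. Rgs1, a regulator that shortens signalling from G protein-coupled receptors, went from 25.8 and 23.2 CPM to 88.4 and 69.8 CPM (1.69 ± 0.14, adjusted p = 1.48e-06). Trat1, an adaptor of the T cell receptor complex, was at 2.96 and 2.19 CPM against 9.05 and 10.0 CPM (1.89 ± 0.21, adjusted p = 3.82e-05). Zak, also called Map3k20, is a kinase that senses stalled ribosomes, and it measured 5.31 and 5.41 CPM against 16.4 and 21.0 CPM (1.80 ± 0.18). Rgs1 and Trat1 were lower in the mIL-21 libraries than in unstimulated cells. At 100 nM of 21h10 both libraries lay above unstimulated cells for Trat1 (5.27 and 6.06 CPM), and 1 of them did for Rgs1 (61.2 and 76.5 CPM). Mcf2l, a guanine nucleotide exchange factor, rose from 3.81 and 2.997 CPM to 11.3 and 11.2 CPM (1.73 ± 0.21). Plxdc2, a membrane protein, went from 2.17 and 2.35 CPM to 8.68 and 9.03 CPM (1.97 ± 0.26), close to the 9.09 and 8.70 CPM of unstimulated cells. Gm6460 and Gm6455 have near-identical copies elsewhere in the genome, and the counting of their reads is uncertain. Their calls were lost without any of the 4 libraries, with an adjusted p of up to 0.204 and 0.274.

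The promoters of the named genes, those that moved and those that did not, were searched for TTCNNNGAA. This is a palindrome that STAT dimers bind and that reads the same on both strands. RefSeq promoter entries on GRCm38.p6 were at hand for 76 of the 98 called genes that the naming rule chose, and 8 of the 76 held a match in the 250 bases before at least 1 of their starts of transcription. Over all 32851 entries, 7.02% held one there, which is a share per start and, since many genes have several, is not compared with the count per gene. 4 of the 8 are shown because they belong to different groups described here, a pair of large rises, a costimulatory receptor and the best known feedback gene of STAT3. The matched letters are in capitals, and each sequence runs from 250 bases before the start up to the start.
Tspan9, chr6:128095470-128095719, minus strand: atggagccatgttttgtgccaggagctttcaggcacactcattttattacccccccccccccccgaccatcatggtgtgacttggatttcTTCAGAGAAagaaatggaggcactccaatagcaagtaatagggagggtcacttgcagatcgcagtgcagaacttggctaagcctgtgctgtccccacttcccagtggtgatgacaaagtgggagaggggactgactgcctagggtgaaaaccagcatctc
Mcf2l, chr8:12949173-12949422, plus strand: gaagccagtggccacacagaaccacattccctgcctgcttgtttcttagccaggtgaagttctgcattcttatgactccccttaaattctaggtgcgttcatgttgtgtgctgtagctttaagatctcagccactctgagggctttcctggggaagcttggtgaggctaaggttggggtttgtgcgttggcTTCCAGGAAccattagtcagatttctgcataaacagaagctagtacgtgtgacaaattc
Tnfrsf18, chr4:156026072-156026321, plus strand: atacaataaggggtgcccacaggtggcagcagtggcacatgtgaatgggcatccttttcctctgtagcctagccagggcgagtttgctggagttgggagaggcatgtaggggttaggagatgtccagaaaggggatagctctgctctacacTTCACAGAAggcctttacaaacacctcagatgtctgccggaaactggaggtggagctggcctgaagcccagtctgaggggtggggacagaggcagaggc
Socs3, chr11:117969367-117969616, minus strand: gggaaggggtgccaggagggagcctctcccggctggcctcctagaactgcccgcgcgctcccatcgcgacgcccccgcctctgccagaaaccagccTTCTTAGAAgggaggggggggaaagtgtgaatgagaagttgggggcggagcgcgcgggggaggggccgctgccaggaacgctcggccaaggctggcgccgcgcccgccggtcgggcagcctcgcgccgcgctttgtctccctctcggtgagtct
The match begins 160 bases before the start in Tspan9, 59 in Mcf2l, 99 in Tnfrsf18 and 154 in Socs3. The Tspan9 and Mcf2l entries are each 1 of several starts of the gene, 4 and 6 entries, and lie within the gene's annotated span. The Socs3 window lies within its gene's annotated span as well. In the entries of Cish, Eomes, Nfil3, Bcl2, Il2ra, Il4ra, Il6ra, Itgax and Btla these letters were not in this window. Of the named genes that did not pass in the step, Ifng, Il7r and Nkg7 held a match in it, so a match is not particular to genes that moved.

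The 12 largest falls, again among genes with a mean of at least 1 RPKM in the higher group, were those of Fxyd4, Crhbp, Miat, Il18, Mir142, AA465934, Matn2, Bco2, Itgax, Il6ra, Itgae and Nacc2. Il18 (chr9:50554700-50581841, plus strand), an inflammatory cytokine of the IL-1 family, was at 25.1 and 24.1 CPM at 10 nM and at 5.96 and 7.73 CPM at 100 nM (-1.85 ± 0.15, adjusted p = 1.34e-06). The mIL-21 libraries, at 21.8 to 26.8 CPM, lay with the lower dose of 21h10, whereas the 100 nM libraries lay with unstimulated cells, at 6.40 and 6.71 CPM. Bco2 is a carotenoid-cleaving enzyme whose gene span overlaps the start of Il18 on the opposite strand. It went from 9.05 and 8.09 CPM to 3.84 and 2.01 CPM (-1.54 ± 0.24). Of the Bco2 exonic bases, 7.60% are shared with Gm47077 on the other strand.

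Il6ra (chr3:89869324-89913196, minus strand), the ligand-binding chain of the IL-6 receptor, measured 37.3 and 37.6 CPM at 10 nM against 13.4 and 12.7 CPM at 100 nM (-1.52 ± 0.10, adjusted p = 2.21e-07). With mIL-21 it was at 38.7 to 41.5 CPM at either dose and without cytokine at 3.63 and 3.49 CPM, so the higher dose of 21h10 was intermediate. Matn2, an extracellular matrix protein, showed the same order, at 23.1 and 22.3 CPM against 7.92 and 7.51 CPM (-1.56 ± 0.16), with 21.5 to 23.7 CPM in mIL-21 and 0.722 and 0.300 CPM in unstimulated cells. So did Miat, a long non-coding RNA, at 24.2 and 29.6 CPM against 5.43 and 8.70 CPM (-1.94 ± 0.19), although 24.3% of its exonic bases are shared with Gm26953 on the other strand and the use of strand in counting is not given in the sources used here. Crhbp, which binds corticotropin-releasing hormone, was low throughout, at 2.81 and 2.09 CPM against 0.497 and 0.595 CPM (-2.16 ± 0.34). Nacc2, a transcriptional repressor, went from 10.3 and 10.96 CPM to 4.08 and 3.90 CPM (-1.41 ± 0.17).

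The remaining large falls rest on few reads. Fxyd4, a regulator of the sodium pump, had 48 and 36 reads at 10 nM and 9 and 1 at 100 nM (-3.02 ± 0.59), and its call was lost without replicate 2 at 100 nM (adjusted p = 0.0561). The row Mir142 covers the hairpin, overlaps Mir142b over all of its length and does not measure the mature microRNA. The call of Mir142 was lost without each of the 4 libraries (adjusted p of up to 0.190), and that of AA465934 without replicate 1 at 10 nM or either library at 100 nM (up to 0.278).

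**Figure D2:**
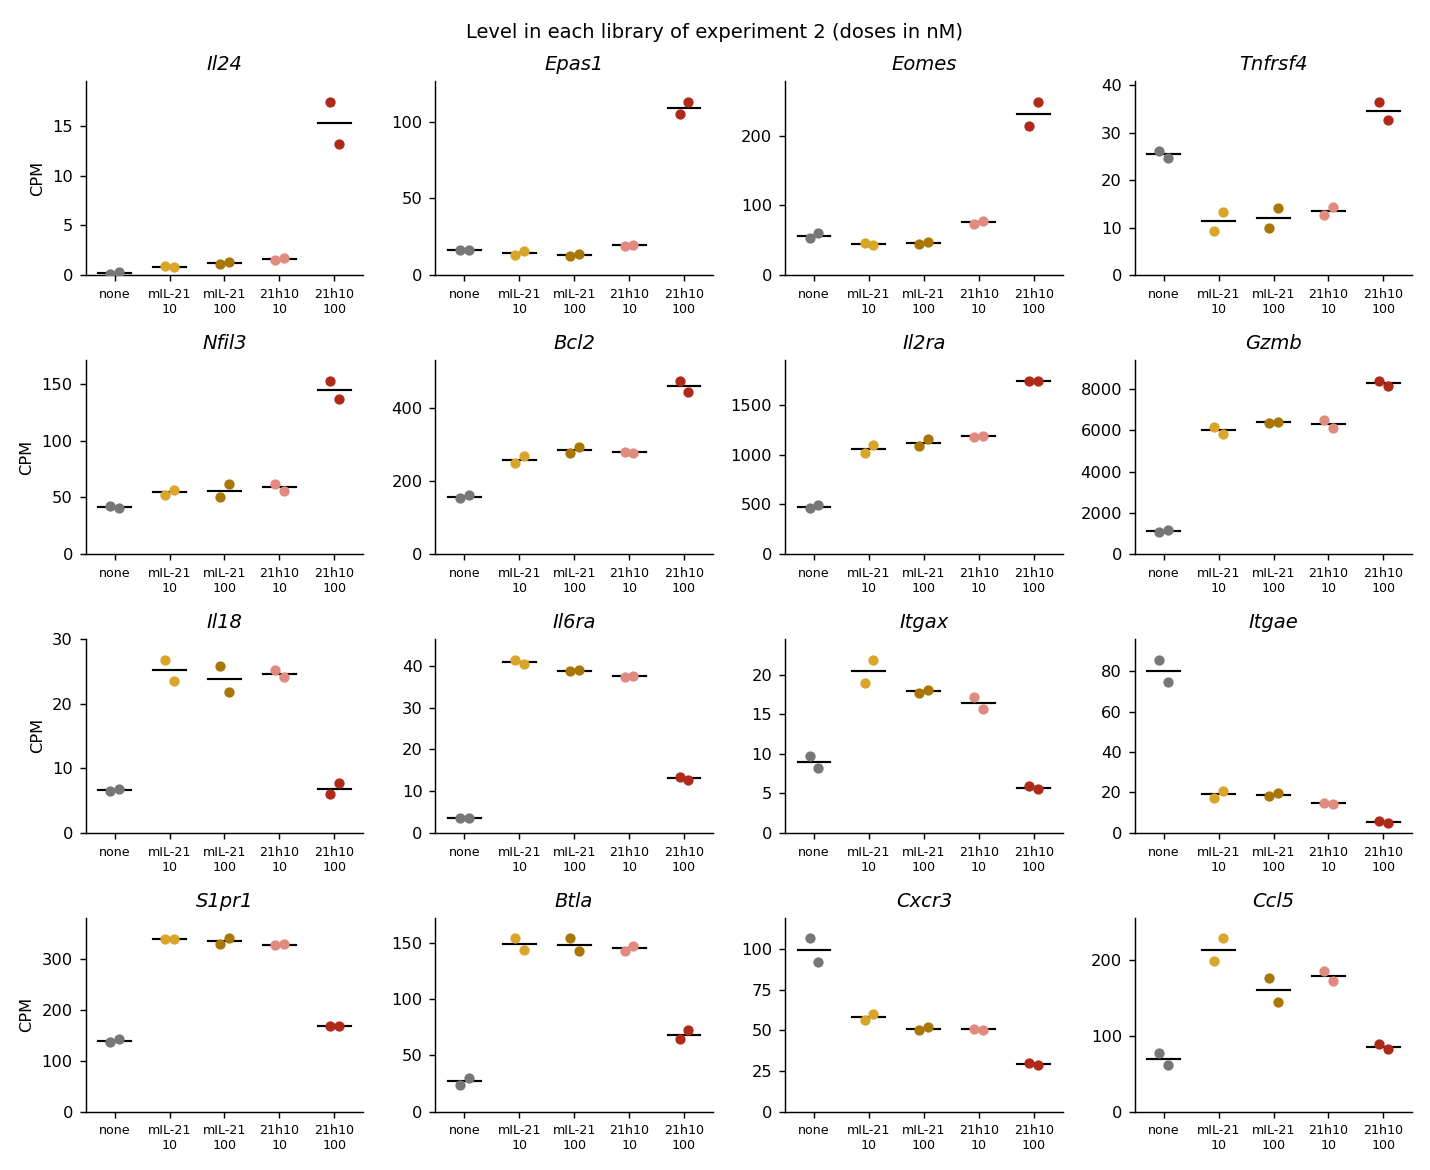
Each panel is 1 gene, each dot 1 library of experiment 2 and each bar the mean of the duplicates, in CPM on an axis from 0, for unstimulated cells (none) and for mIL-21 and 21h10 at 10 nM and 100 nM. In all 16 panels the 2 libraries at 100 nM of 21h10 lie outside the range of those at 10 nM, above it in the upper 8 panels and below it in the lower 8.

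Among genes tied to IL-2 and STAT5 more rose than fell. Of 18 such genes tested, 8 rose and 2 fell (10 of 18 called, 55.6%, against 5.33% of all genes), and the median log2 fold change was 0.21 against 0.00 over all genes. The other 8 were not called, Socs2 among them (log2 fold change -0.20 to -0.05 over the other fits). In sign, 11 of the 18 were above 0 and 7 below. Nfil3, a transcription factor, went from 61.9 and 55.5 CPM to 153 and 136.7 CPM (1.30 ± 0.11, adjusted p = 1.48e-06). Bcl2, which protects T cells from apoptosis, went from 281 and 278 CPM to 476 and 444 CPM (0.72 ± 0.08, adjusted p = 3.81e-05). Il2ra, the high-affinity chain of the IL-2 receptor, was at 1180 and 1194 CPM against 1747 and 1747 CPM (0.56 ± 0.08, adjusted p = 0.000358). The 100 nM libraries lay above all 8 others of experiment 2 for the 3 genes. Cish, a feedback inhibitor of STAT5 signalling, rose from 41.8 and 40.4 CPM to 70.0 and 62.0 CPM (0.68 ± 0.13, adjusted p = 0.00514). The call of Cish was lost without replicate 2 at 10 nM or replicate 1 at 100 nM, with an adjusted p of up to 0.0942. Osm, a cytokine of the IL-6 family, went the other way, from 60.6 and 53.7 CPM to 38.7 and 34.2 CPM (-0.65 ± 0.11). With 1 library left out 5 to 7 members were called higher and 1 lower, and 5 rises (Nfil3, Tnfrsf4, Bcl2, Il4ra and Il2ra) and the fall of Osm were stable.

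Among the receptors with the common gamma chain, 2 of 7 rose and none fell (28.6% called, against 5.33% of all genes). Il4ra, the IL-4 receptor α chain, stood at 409 and 397 CPM at 10 nM and at 658 and 635 CPM at 100 nM (0.68 ± 0.09, adjusted p = 0.000301), and Il2ra was the other. Il21r, the receptor of both cytokines, was at 439 and 426 CPM against 438 and 391 CPM (-0.06 ± 0.08, adjusted p = 0.743), with duplicates that overlapped. Of 11 JAK and STAT genes 0 were called, with log2 fold changes of -0.25 to 0.26. At an unadjusted p under 0.05 there were 4, and DESeq2 called 1. Of the 8 SOCS genes, which encode feedback inhibitors of cytokine signalling, Cish rose and Socs3 fell (25.0% called). Socs3, the main inhibitor of STAT3 signalling from gp130, was at 315 and 313 CPM against 262 and 261 CPM (-0.26 ± 0.07, adjusted p = 0.0461). Its call was lost without each of the 4 libraries and with limma on log2(RPKM + 1) and with mapped reads as library sizes, with an adjusted p of up to 0.268. Socs1 stood at 18.1 and 16.3 CPM against 18.7 and 17.7 CPM and was not called.

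Receptors for IL-6, IL-10, IL-12, IL-18, interferon and IL-1 moved in both directions. Of 17 tested, 2 rose and 5 fell (41.2% called, against 5.33% of all genes), with a median of -0.21. Il6ra was described above. Il1r1, the signalling receptor of IL-1, fell from 21.5 and 21.9 CPM to 13.0 and 12.6 CPM (-0.76 ± 0.13), whereas Il1r2, the IL-1 decoy receptor, rose from 3.42 and 2.77 CPM to 6.43 and 6.51 CPM (1.06 ± 0.22). Il18r1, the IL-18 receptor, fell from 449 and 478 CPM to 326 and 337 CPM (-0.48), alongside its ligand Il18. Il12rb1, shared by the IL-12 and IL-23 receptors, rose from 47.6 and 46.0 CPM to 73.8 and 65.3 CPM (0.57 ± 0.11). The call of Il1r2 was lost without replicate 2 at 10 nM or either library at 100 nM (adjusted p of up to 0.138), and that of Il12rb1 without either library at 10 nM or replicate 1 at 100 nM (up to 0.121). Il6ra, Il1r1 and Il18r1 were stable.

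A few costimulatory receptors of the TNF receptor family rose. Of 18 costimulatory and TNF receptor genes tested, 4 rose and 1 fell (5 of 18, 27.8%, against 5.33% of all genes), and the median was 0.06. Tnfrsf4 (OX40) went from 12.6 and 14.4 CPM to 36.5 and 32.6 CPM (1.35 ± 0.17, adjusted p = 0.000166), above both the mIL-21 libraries (9.34 to 14.1 CPM) and unstimulated cells (26.2 and 24.7 CPM). Tnfrsf8 (CD30) was at 48.2 and 48.2 CPM against 80.6 and 73.5 CPM (0.68 ± 0.12). Tnfrsf9 (4-1BB) measured 89.5 and 74.9 CPM against 140.7 and 112 CPM (0.62 ± 0.13), and Tnfrsf18 (GITR), the neighbour of Tnfrsf4 on chromosome 4, 43.9 and 41.0 CPM against 71.2 and 57.7 CPM (0.60 ± 0.13). Of the Tnfrsf18 exonic bases, 27.2% are shared with Gm16008 on the other strand. The rise of Tnfrsf4 was stable, and the others were lost without replicate 1 at 100 nM, where only 1 of the 4 rises was called, with adjusted p of up to 0.0656, 0.158 and 0.183 over all fits.

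Eomes, a T-box factor of effector and memory CD8+ T cells, had the largest rise among effector transcription factors. It was at 73.2 and 78.2 CPM at 10 nM and at 214 and 248 CPM at 100 nM (1.61 ± 0.10, adjusted p = 1.55e-07), while the mIL-21 libraries were at 42.6 to 48.0 CPM and unstimulated cells at 52.7 and 60.4 CPM. Batf, an AP-1 factor of effector differentiation, measured 46.8 and 48.7 CPM against 68.1 and 64.2 CPM (0.47 ± 0.10). Prdm1, which encodes Blimp-1, stood at 78.3 and 77.9 CPM against 104 and 97.9 CPM (0.37 ± 0.09, adjusted p = 0.0243). Of 12 such factors 3 rose and 0 fell (25.0% called, against 5.33% of all genes), with a median of -0.05. Eomes was the only member called in each fit without 1 of the 4 libraries, and the adjusted p of Batf and Prdm1 reached 0.121 and 0.210. Tbx21, which encodes T-bet, was at 79.2 and 82.0 CPM against 72.3 and 70.6 CPM and was not called (-0.17 ± 0.09).

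Some cytotoxic genes rose further from an already high level. Of 22 tested, 3 rose and 0 fell (13.6% called, against 5.33% of all genes), with a median of 0.08. Gzmb, granzyme B, went from 6501 and 6128 CPM to 8407 and 8156 CPM (0.39 ± 0.08, adjusted p = 0.00535), and Gzma from 3592 and 3360 CPM to 4867 and 4768 CPM (0.47 ± 0.09, adjusted p = 0.00564). Srgn, the proteoglycan that packs granzymes into granules, was at 542 and 487 CPM against 705 and 726 CPM (0.48 ± 0.10). Prf1, perforin, was at 293 and 278 CPM against 330 and 321 CPM and did not pass (0.19 ± 0.09, adjusted p = 0.276). Ifng and Nkg7 did not pass either, at 0.09 ± 0.10 and -0.08 ± 0.12. All 3 rises held without replicate 1 at 10 nM, and each was lost without replicate 2 at 10 nM, replicate 1 at 100 nM or replicate 2 at 100 nM, with adjusted p of up to 0.143.

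Several genes of memory and quiescence fell. Of 15 tested, 0 rose and 7 fell (46.7% called, against 5.33% of all genes), and the median was -0.31. S1pr1, the receptor that lets T cells leave lymphoid organs, went from 327 and 330 CPM to 169 and 168 CPM (-0.97 ± 0.07, adjusted p = 1.16e-06), below the 329 to 341 CPM of the mIL-21 libraries and above the 136.2 and 143.1 CPM of unstimulated cells. Klf2, a transcription factor that drives S1pr1 in resting T cells, was at 97.2 and 103 CPM against 71.8 and 71.9 CPM (-0.48 ± 0.10). Klf3, of the same family, went from 22.7 and 28.3 CPM to 14.8 and 16.5 CPM (-0.71 ± 0.13), and Ccr7, the homing receptor for lymph nodes, from 194 and 176 CPM to 141.05 and 122 CPM (-0.49 ± 0.12). Lef1 and Bach2, factors of stem-like and resting T cells, had log2 fold changes of -0.41 and -0.45. Tcf7, which encodes TCF-1, was at 1089 and 1094 CPM against 906 and 933 CPM and did not pass (-0.25 ± 0.07, adjusted p = 0.0711). It passed with DESeq2, without the filter on low counts, with the compared groups fitted alone and with a replicate block, with an adjusted p of down to 0.00661. The fall of S1pr1 was stable. The list held 5 calls, all downwards, without replicate 1 at 10 nM, 1 without replicate 2 at 10 nM, 1 without replicate 1 at 100 nM and 3 without replicate 2 at 100 nM.

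Of the lists plotted here, integrins had the largest share of falls, where 3.45% of all genes tested fell. Of 14 tested, 0 rose and 8 fell (57.1%), with a median of -0.49, and 5 or 6 were called lower when 1 library was left out. DESeq2 called 1 higher. Itgae, the CD103 chain that binds E-cadherin, was at 14.999 and 14.2 CPM at 10 nM and at 5.90 and 4.87 CPM at 100 nM (-1.44 ± 0.14, adjusted p = 1.21e-05). It was already lower with mIL-21 (17.4 to 20.7 CPM) than in unstimulated cells (85.7 and 74.7 CPM). Itgax, which encodes CD11c, measured 17.2 and 15.7 CPM against 5.93 and 5.50 CPM (-1.52 ± 0.15), and Itgam, which encodes CD11b, 100 and 105 CPM against 42.6 and 53.0 CPM (-1.11 ± 0.10). Itga1, the collagen-binding α1 chain, went from 3.56 and 3.84 CPM to 1.59 and 2.12 CPM (-1.0002 ± 0.27), a call lost without any 1 of the 4 libraries (adjusted p of up to 0.227). Itgax and Itgam are neighbours on chromosome 7, and 68.7% of the Itgam exonic bases are shared with Gm49368 on the same strand. Both also mark myeloid cells. Of 12 myeloid and dendritic cell markers in the tables, 6 were tested, and the 2 that fell (33.3% of the 6) are Itgam and Itgax. The summed level of the list was 127 to 132 CPM at 10 nM and 58.9 to 71.4 CPM at 100 nM, most of it Itgam, and the defining markers Csf1r, Cd14, C1qa and C1qb were at or near 0. Itga4 and Itgb7, which form the gut-homing integrin α4β7, went from 386 and 419 CPM to 205.99 and 240 CPM (-0.85) and from 639 and 568 CPM to 389 and 378 CPM (-0.65).

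Of 14 inhibitory receptors, 1 rose and 3 fell (28.6% called, against 5.33% of all genes), with a median of -0.21. DESeq2 called 2 higher and 3 lower, and the fits without the filter on low counts and with the compared groups alone called 3 in each direction. Btla went from 143.005 and 147 CPM to 64.1 and 72.2 CPM (-1.09 ± 0.10, adjusted p = 5.37e-06), and Nt5e, the CD73 enzyme that makes adenosine from AMP, from 121 and 116 CPM to 65.5 and 74.2 CPM (-0.76 ± 0.09, adjusted p = 5.09e-05). Cd160 fell from 23.5 and 18.7 CPM to 14.1 and 14.9 CPM (-0.54 ± 0.13). Entpd1, the CD39 enzyme that makes that AMP from ATP, moved the other way, from 43.5 and 38.1 CPM to 64.5 and 66.3 CPM (0.68 ± 0.11). Its call was lost without replicate 2 at 10 nM (adjusted p = 0.0557). Of 16 NK-type receptors 0 rose and 3 fell (18.75% called). They were Klrd1, at 300 and 273 CPM against 179 and 173 CPM (-0.70 ± 0.10), Klrc1 (-0.54 ± 0.10) and Klrk1 (-0.51 ± 0.09), which lie together on chromosome 6. Klrc1 shares 79.8% of its transcript with the near-identical Klrc2, so the call of Klrc1 is uncertain. Of the NK-type receptors only Klrd1 was a stable call. The calls of Klrc1 and Klrk1 were each lost in some fits without 1 library. Their log2 fold changes were -0.65 to -0.45 and -0.60 to -0.43 over the other fits. Among 7 natural killer cell markers 28.6% were called. Gzma rose, and Itga2, an integrin that also marks natural killer cells, fell from 13.2 and 11.2 CPM to 7.09 and 8.14 CPM (-0.68 ± 0.16). The calls of Cd160 and Itga2 were both lost in the fits without 1 library, except that without replicate 2 at 10 nM, and with limma (adjusted p of up to 0.259 and 0.187).

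A few chemokines fell, and cytokines moved in both directions. Of 12 chemokines tested, 0 rose and 4 fell (33.3% called, against 5.33% of all genes). Ccl5, which draws T cells and monocytes, went from 185 and 173 CPM to 89.1 and 82.3 CPM (-1.06 ± 0.12, adjusted p = 3.81e-05), and Ccl9, Ccl3 and Ccl4 had log2 fold changes of -0.66, -0.60 and -0.48. With 1 library left out 1 or 2 chemokines were called lower, Ccl5 among them each time. Cxcr3, the receptor that guides effector T cells to inflamed tissue, fell from 50.9 and 50.5 CPM to 29.7 and 29.0 CPM (-0.79 ± 0.09, adjusted p = 9.46e-05). Ccr4, a homing receptor for skin, rose from 6.63 and 7.77 CPM to 12.4 and 11.9 CPM (0.76 ± 0.16), a call lost without replicate 1 at 10 nM or either library at 100 nM (adjusted p of up to 0.138). Of 20 cytokines 2 rose, Il24 and Il10, and 2 fell, Osm and Tnf. Il10, which restrains inflammation, was at 55.5 and 50.5 CPM against 75.2 and 67.6 CPM (0.43 ± 0.10), and Tnf at 7.09 and 6.83 CPM against 4.67 and 4.39 CPM (-0.62 ± 0.17). The calls of Il10 and Tnf were lost without each of the 4 libraries, both with an adjusted p of up to 0.242.

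Some metabolic and stress response genes rose, and 0 of these calls were stable. Of 28 genes of glycolysis and the hypoxia response, 5 rose and 0 fell (17.9% called, against 5.33% of all genes). Their log2 fold changes ran from 0.03 to 0.99 with a median of 0.34, relative to a median of 0.00 over all genes. Bnip3, a mitochondrial gene induced by low oxygen, was at 94.2 and 71.4 CPM against 181 and 148 CPM (0.99 ± 0.19), and Vegfa at 17.03 and 13.4 CPM against 28.2 and 23.1 CPM (0.76 ± 0.16). Ero1l, an oxidase of the endoplasmic reticulum, and the glycolytic enzyme Tpi1 rose by 0.55 and 0.46. A near-identical copy covers 94.2% of the Bnip3 transcript. Without replicate 2 at 10 nM or replicate 1 at 100 nM 0 of the 28 were called, and with mapped reads as library sizes 3 were. Of 30 genes of cholesterol and fatty acid synthesis 8 rose and 0 fell (26.7% called), with a median of 0.27. Cyp51 and Dhcr7, enzymes late in cholesterol synthesis, rose by 0.43 and 0.50, Fdps, which makes farnesyl diphosphate, by 0.46, and the fatty acid desaturase Scd1 by 0.38. Near-identical sequence of Gm43738 covers 81.6% of the Fdps transcript. With 1 library left out at most 1 member was called. Among 35 genes of the ATF4 stress response and tRNA charging, 7 rose and 0 fell, with a median of 0.20. The largest change in the list was that of Vldlr, a lipoprotein receptor, from 2.28 and 1.48 CPM to 8.12 and 4.54 CPM (1.76 ± 0.39, adjusted p = 0.0138). Its call was lost without replicate 2 at 10 nM, without replicate 1 at 100 nM and with limma (adjusted p of up to 0.188). Asns, asparagine synthetase, went from 47.1 and 43.1 CPM to 64.0 and 64.4 CPM (0.51 ± 0.09), and Trib3 from 3.99 and 3.51 CPM to 7.06 and 6.84 CPM (0.89 ± 0.20). Phgdh, an enzyme of serine synthesis, rose by 0.43, and a near-identical copy covers 84.6% of its transcript. With 1 library left out 0 to 2 members were called, 0 of them without replicate 2 at 10 nM. Of 21 ER chaperones and genes of the unfolded protein response 2 rose and 0 fell (9.52% called), with a median of 0.18. They were the transcription factor Xbp1 (0.44 ± 0.10) and Manf (0.33 ± 0.09).

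Proliferation and protein synthesis genes gave few calls. Of 32 genes of DNA replication 3 rose and 0 fell (9.4% called, against 5.33% of all genes), with a median of 0.23. The 3 were Prim1, a primase subunit (0.40 ± 0.09), Cdc6, which loads the replicative helicase (0.35 ± 0.08), and Mcm6, a subunit of that helicase (0.29 ± 0.07). Without any 1 of the 4 libraries 0 were called, with mapped reads as library sizes 1 was, with DESeq2 8 were and with the compared groups alone 16 were, all of them higher. Of 29 mitosis genes 0 were called, with a median of 0.16 against 0.12 in the mIL-21 step. At an unadjusted p under 0.05 there were 11, and DESeq2 called 2. Of 81 cytoplasmic ribosomal protein genes 0 were called, and of 79 genes of oxidative phosphorylation 1 fell (1.27%), Sdhd (-0.49 ± 0.11). The call of Sdhd was not stable and was not made with limma, and its log2 fold change was -0.60 to -0.40 over the other fits. Of 31 genes of ribosome biogenesis 0 were called, where 8 had an unadjusted p under 0.05 and DESeq2 called 4. Of the ribosomal protein genes 0 had an unadjusted p under 0.05 and DESeq2 called 0. Of 18 genes of Pim kinases, Myc and G1 control 2 rose and 1 fell (16.7% called), with a median of 0.09. Cdkn1a, the cell cycle inhibitor p21, was at 38.7 and 36.3 CPM against 73.2 and 55.0 CPM (0.77 ± 0.14), and Cdk6, a G1 kinase, at 58.5 and 70.2 CPM against 92.4 and 90.3 CPM (0.51 ± 0.10). E2f2, a transcription factor of the cell cycle, fell by 0.50, a call lost without replicate 2 at either dose and with limma (adjusted p of up to 0.102). The call of Cdkn1a was lost without replicate 2 at 10 nM and that of Cdk6 without replicate 1 at 10 nM, and both were lost without replicate 1 at 100 nM, with an adjusted p of up to 0.0936 and 0.114. Among 59 histone genes, 2 (3.39%) rose, Hist1h2ap and Hist1h2ao (1.38 ± 0.21 for both), which are near-identical copies with near-identical values. They have 29 and 28 near-identical copies, and the counting of their reads is uncertain. The summed CPM of the histone list was 103 to 108 at 10 nM and 138.96 to 169 at 100 nM.

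Other lists held scattered calls. Among 44 interferon-stimulated genes 3 rose and 5 fell (18.2% called, against 5.33% of all genes), with a median of 0.09. Ifit1 was at 7.98 and 5.93 CPM against 11.3 and 12.1 CPM (0.75 ± 0.17) and Iigp1, a GTPase of cell-autonomous defence, at 53.2 and 53.4 CPM against 38.4 and 37.3 CPM (-0.49 ± 0.11). Oas1g rose from 1.25 and 1.51 CPM to 2.65 and 3.31 CPM (1.10 ± 0.29), and Cmpk2 fell from 19.2 and 17.3 CPM to 11.2 and 12.5 CPM (-0.63 ± 0.12). Near-identical sequence of Oas1a covers 94.1% of the Oas1g transcript. The call of Oas1g was lost without any 1 of the 4 libraries (adjusted p of up to 0.234) and that of Cmpk2 without replicate 1 at either dose (up to 0.0842). Without replicate 1 at 100 nM 0 of the 44 were called, and the other 3 fits without 1 library called 2 or 3. Among 26 genes of antigen presentation, H2-DMa, which loads peptides onto MHC class II, rose from 11.3 and 12.4 CPM to 30.3 and 28.4 CPM (1.31 ± 0.15, adjusted p = 6.65e-05), in each fit without 1 library too. It was the only call of its list (3.85%), and 10.4% of its exonic bases are shared with Brd2 on the other strand. Pmaip1, the pro-apoptotic factor NOXA, fell from 119 and 116 CPM to 79.5 and 74.0 CPM (-0.61 ± 0.10). Of 16 BCL2 family genes 1 thus rose and 1 fell (12.5% called), both stable. Of 12 genes of the type 17 program, 3 rose (Il24, Il10 and Batf) and Il1r1 fell (33.3% called). Of 17 AP-1, EGR and NR4A genes (11.8% called), Jun rose (0.40 ± 0.09) and Ier3 fell (-0.43 ± 0.09). Of 20 genes of the T cell receptor complex and its proximal signalling (5.0% called), Cd6 fell (-0.41 ± 0.09). The calls of Jun and Cd6 were each lost without any 1 of the 4 libraries, with adjusted p of up to 0.164 and 0.151, and that of Ier3 in all of these fits but the one without replicate 1 at 100 nM (up to 0.150). Of 3 tested markers of granulocytes, erythroid cells and platelets 0 were called by edgeR or DESeq2 and 1 had an unadjusted p under 0.05.

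**Figure D3:**
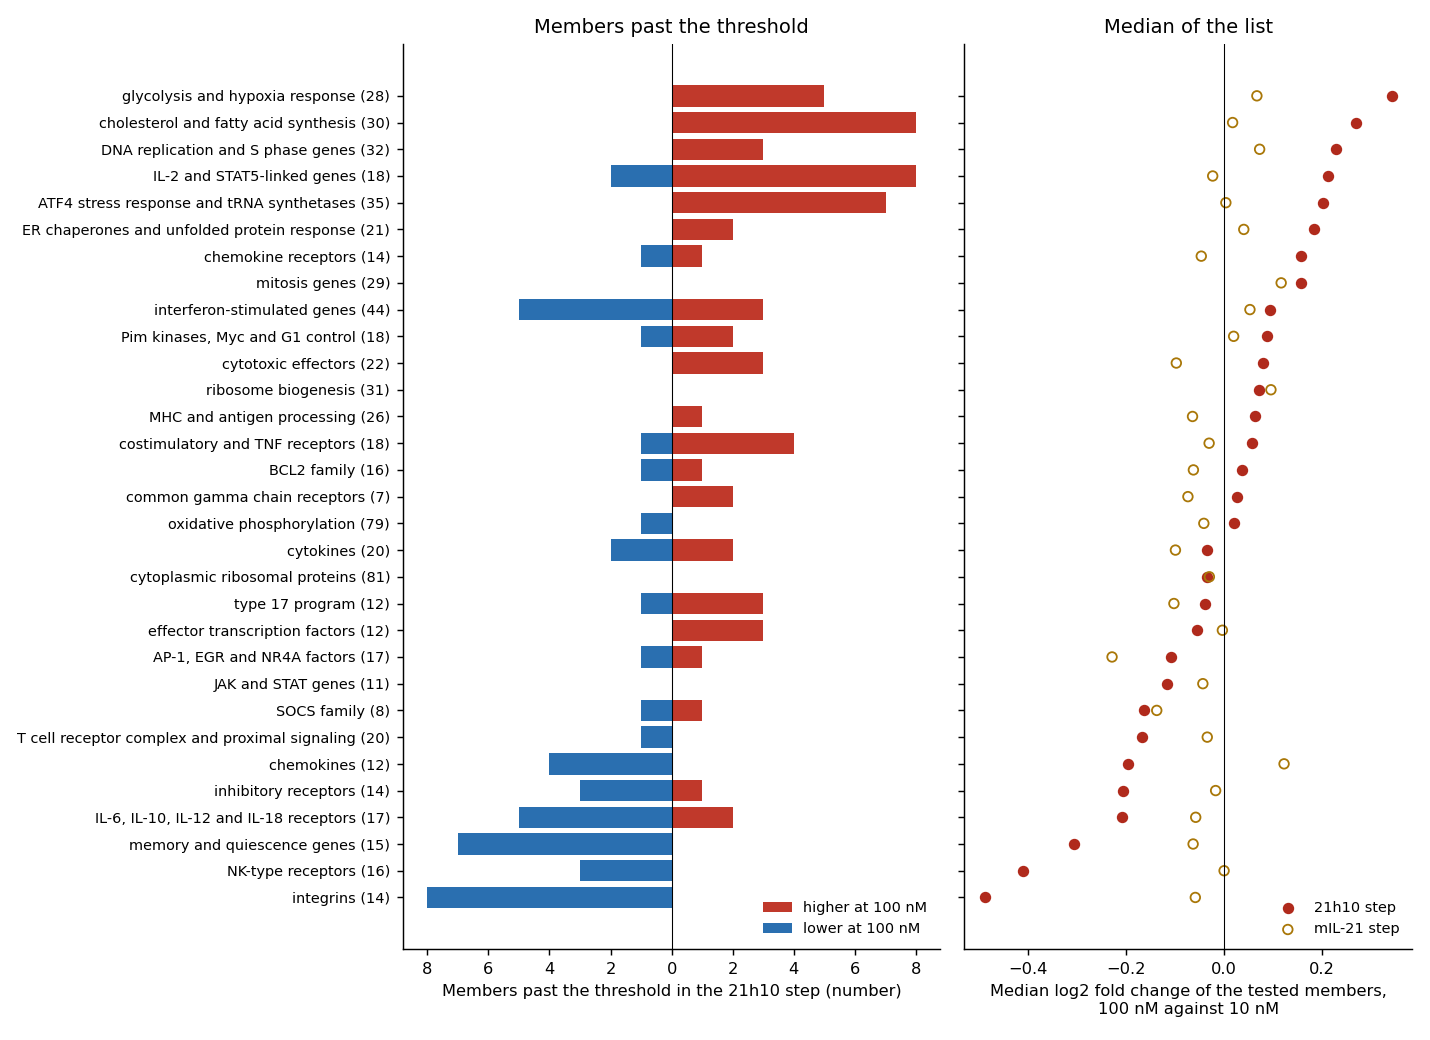
Gene lists are ordered by their median log2 fold change in the 21h10 step, with the number of genes tested in brackets. The left panel gives how many members rose (red) or fell (blue) at an adjusted p under 0.05, and the right panel the median log2 fold change from 10 nM to 100 nM for 21h10 (filled) and mIL-21 (open), from integrins at -0.49 to glycolysis and hypoxia response at 0.34 for 21h10.

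A heat map list was chosen by the study's authors, so its direction is no independent evidence. Of its genes, 4 rose in the step (Bcl2, Cish, Gzmb and Prdm1) and 2 fell (Ccr7 and Socs3), out of 20 tested (30.0% called, against 5.33% of all genes). The other 14, which include Cd27, Cd28, Il7r, Ptprc, Tigit, Socs2 and Socs5, had log2 fold changes between -0.26 and 0.37 and did not pass. Bcl2 was the only stable call of the 20.

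The same step of mIL-21 served as the comparison for native cytokine, with libraries of the same experiment, doses and time. At an adjusted p under 0.05, 0 of 13772 genes (0%) differed between the mIL-21 doses by edgeR, and 361 (2.62%) had an unadjusted p under 0.05, against 2635 (19.1%) in the 21h10 step. DESeq2 and limma called 0 genes too. The genes that rose with 21h10 had a median log2 fold change of 0.61 in the 21h10 step and 0.03 in the mIL-21 step, and those that fell -0.51 and -0.10. These genes were chosen by their 21h10 step, so the medians are a description.

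The difference between the steps was tested in the same fit. It passed for 127 genes (0.922%), of which 63 (0.457%) were more positive and 64 (0.465%) more negative with 21h10, and 126 of the 127 were among the 734 genes of the 21h10 step. For the other 608 of the 734, the step of 21h10 was not shown to differ from that of mIL-21. The count of the difference was 45 to 75 when 1 of the 8 compared libraries was left out, lowest without replicate 2 at 10 nM of 21h10, except without replicate 1 at 10 nM of mIL-21, where it was 94. The 5 largest differences upwards were those of Fam19a3 (2.74), Il24 (2.72), Epas1 (2.58), Tspan9 (2.48) and Plxdc2 (2.34), and the 5 largest downwards those of Crhbp (-2.41), Il18 (-1.77), Miat (-1.57), Matn2 (-1.53) and Bco2 (-1.51). Epas1 measured 12.9 and 15.5 CPM at 10 nM and 12.8 and 14.1 CPM at 100 nM of mIL-21, a log2 fold change of -0.08 with a 95% interval of -0.32 to 0.16. For Il18 the mIL-21 step was -0.07 (95% interval -0.36 to 0.21).

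**Figure D4:**
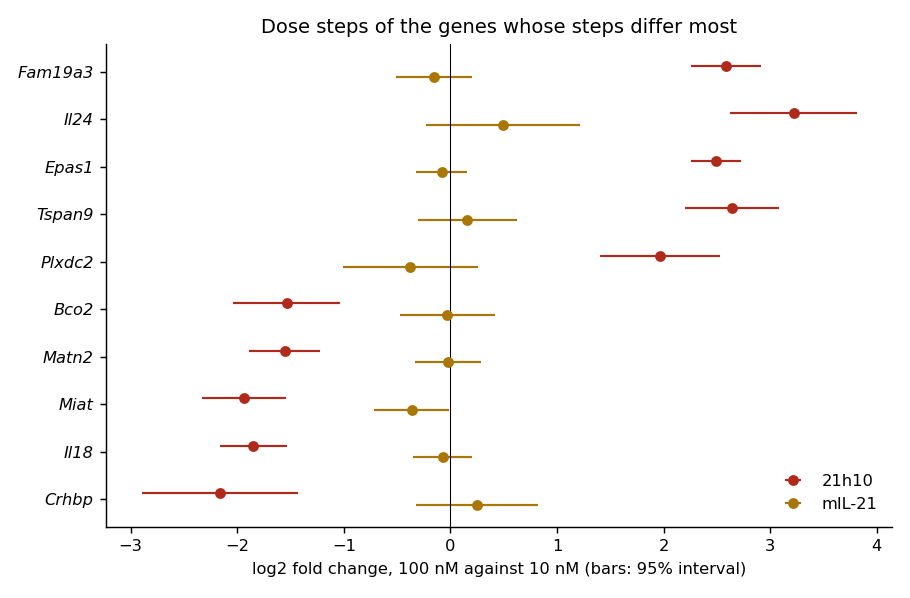
The log2 fold change from 10 nM to 100 nM is shown for the 5 genes with the largest difference between the steps in each direction, for 21h10 (red) and mIL-21 (ochre), with bars for the 95% interval. The 21h10 values lie between -2.16 and 3.22 and clear of 0, and those of mIL-21 between -0.38 and 0.49.

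For several genes with clear functions the difference passed as well. It was 1.55 ± 0.14 for Eomes (adjusted p = 2.30e-05), 1.26 for Nfil3, 1.28 for Tnfrsf4, 0.92 for Cish, 0.77 for Il4ra and 0.58 for Bcl2, and it was -0.95 for S1pr1, -1.09 for Btla, -1.44 for Il6ra, -1.42 for Itgae and -1.33 for Itgax. For Gzmb it was 0.30 (95% interval 0.07 to 0.53, adjusted p = 0.360) and for Il2ra 0.47 (95% interval 0.24 to 0.70, adjusted p = 0.0569), and neither passed. Socs3, at -0.07 (95% interval -0.29 to 0.15), and Il21r, at 0.01 (95% interval -0.23 to 0.25), gave differences near 0, with intervals that leave room for small ones in either direction.

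The genes that fell were largely ones that were higher with mIL-21. The mIL-21 response, taken as the mean of its 2 doses against unstimulated cells, shares no library with the 21h10 step, and it passed for 7228 genes (52.5%). Of the 475 genes that fell, 345 (72.6%) were higher and 56 (11.8%) lower with mIL-21, where 25.0% of all genes tested were higher and 27.5% lower, and the median log2 fold change was 0.57 against -0.02 over all genes. Of the 259 genes that rose, 88 (34.0%) were higher and 117 (45.2%) lower with mIL-21, with a median of -0.20. With 100 nM of mIL-21 alone, 62.3% of the genes that fell were higher than in unstimulated cells, where 22.5% of all genes were. Il6ra, Matn2, Itgam, Btla, S1pr1 and Il18 are examples of the first kind, with mIL-21 responses of 3.48, 5.43, 5.05, 2.46, 1.27 and 1.90, and Tspan9, Rgs1, Tnfrsf4, Plxdc2 and Trat1 of genes that rose in the step and were lower with mIL-21, with -1.68, -1.71, -1.13, -2.44 and -1.26. Itgae and Cxcr3 fell in the step and were lower with mIL-21 too (-2.08 and -0.86), and Gzmb, Gzma and Bcl2 rose and were higher with mIL-21 (2.47, 6.03 and 0.80).

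**Figure D5:**
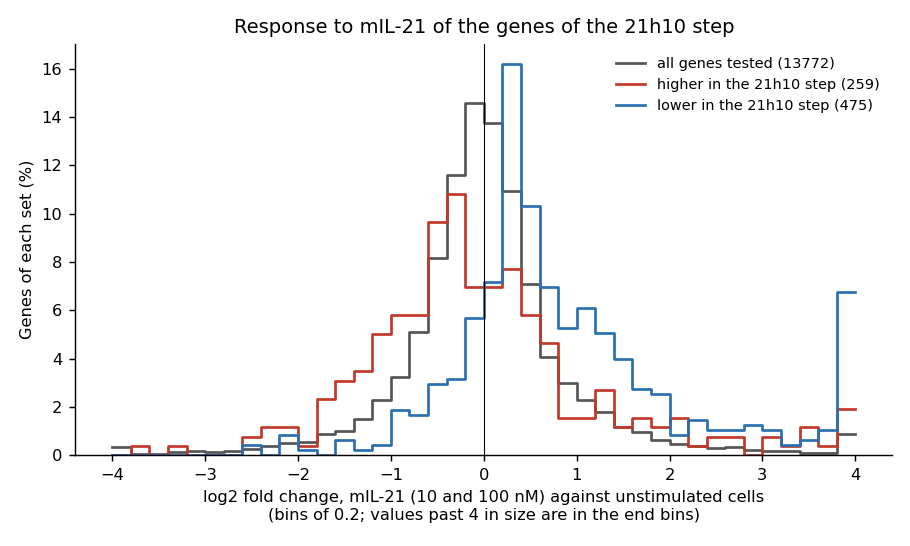
The horizontal axis is the log2 fold change of mIL-21 (mean of 10 nM and 100 nM) against unstimulated cells in bins of 0.2, and the vertical axis the percentage of each set of genes in a bin. The 475 genes that fell in the 21h10 step (blue) have a median of 0.57, the 259 that rose (red) one of -0.20 and all 13772 tested (grey) one of -0.02.

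The lower dose step of 21h10, from 100 pM to 1 nM, was measured in experiment 1 with other libraries, so dose range and experiment cannot be told apart. Of the 13974 genes tested there, 39.2% passed, 20.1% higher and 19.1% lower. Of the 254 genes that rose from 10 nM to 100 nM and were tested there, 108 (42.5%) were higher at 1 nM than at 100 pM and 61 (24.0%) lower. Of the 473 that fell, 43.3% were lower and 28.5% higher, where 20.4% of the 13248 genes tested in both were higher and 19.8% lower. Genes that rose in both steps include Il24 (2.36 in the lower step), Bcl2 (0.86), Il2ra (1.09), Nfil3 (0.96) and Cish (0.82), and Itgax (-2.03), Itgae (-1.95) and Cxcr3 (-1.38) fell in both. Others had opposite directions. Eomes was lower by 0.93 on the log2 scale from 100 pM to 1 nM and rose by 1.61 from 10 nM to 100 nM, and Trat1 went from -1.65 to 1.89. In the reverse order, Il6ra had 1.36 in the lower step and -1.52 in the higher, Matn2 1.95 and -1.56, Osm 2.14 and -0.65, Il1r1 3.85 and -0.76, Ccl4 3.61 and -0.48, and Socs3 1.92 and -0.26.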

How the data were processed

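RNA-seq libraries were prepared by the authors with a KAPA mRNA HyperPrep kit and sequenced on a NovaSeq. According to the submitters' processing notes and the study's methods, the authors used TopHat2 2.0.11, Bowtie2 2.2.6, SAMtools 0.1.8, bedtools 2.25.0 and edgeR, with the mouse build mm10 (GRCm38). The deposited counts are whole reads per RefSeq transcript, 1 library per table. The authors also deposited RPKM, which divides the counts by transcript length and by the library's mapped reads. How reads shared by overlapping or near-identical genes, or by both strands, were counted is not given in the sources used here.

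Each of 23992 symbols was represented by its longest transcript. Genes were kept by filterByExpr (least count 10, least total count 15), which left 13772 in experiment 2, with TMM scaling, and the quasi-likelihood test of edgeR 4.0.16 (R 4.3.3) was run over the 10 libraries, with group as the factor. Genes with a p under 0.05 after Benjamini-Hochberg adjustment over all genes tested were called. Intervals are 95% intervals around the fitted value, built from that SE. Experiment 1 was fitted apart in the same way (13974 genes). The procedure was tested on simulated counts. The members, gene lists and tests were chosen with earlier results of these data known. The text names the 12 largest rises and falls that passed, did not overlap between groups and had a mean of at least 1 RPKM in the higher group, the 5 largest differences between the steps in each direction, the study's heat map genes with Il21r, and of each list up to 4 called members with the largest change, plus members whose role is described. Il18r1, Itga4, Itgb7, Lef1 and Bach2 were added for their roles. Alternatives were DESeq2 1.42.0, limma 3.58.1 on log2(RPKM + 1), no filter, a log2 fold limit of 1, the compared groups alone, the most-read transcript, mapped reads without TMM, a replicate block and each library left out. Gene positions and overlaps came from RefSeq and GENCODE on GRCm38, near-identical copies from BLAST 2.17.0. Promoter entries matched 78.5% of the genes tested, 78.0% of those that rose and 74.1% of those that fell. This is under 80%, so a comparison of motif shares between them is void and is not reported.

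Sequencing depth was 27072917 to 43300094 reads on genes per library of experiment 2. Duplicates differed by more than counting noise, with a mean chi-square of 6.63 to 38.3 per gene, and the spread between libraries (biological coefficient of variation 8.80%) limits the precision more than depth does.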

Additional observations from a re-analysis of the deposited data

Results flagged for a closer look

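The dose steps of 21h10 and mIL-21 differed, by the test of the difference itself in the edgeR fit, for 127 genes, of which 37 are named here. Upwards with 21h10, the log2 differences between the steps were 2.74 for Fam19a3, 2.72 for Il24, 2.58 for Epas1, 2.48 for Tspan9, 2.34 for Plxdc2, 1.745 for Trat1, 1.55 for Eomes, 1.52 for Zak, 1.52 for Rgs1, 1.498 for Mcf2l, 1.44 for H2-DMa, 1.28 for Tnfrsf4, 1.26 for Nfil3, 1.10 for Ccr4, 0.92 for Cish, 0.82 for Il10, 0.77 for Il4ra, 0.77 for Tnfrsf8, 0.58 for Bcl2 and 0.58 for Gzma. Downwards they were -2.41 for Crhbp, -1.77 for Il18, -1.57 for Miat, -1.53 for Matn2, -1.51 for Bco2, -1.44 for Il6ra, -1.42 for Itgae, -1.33 for Itgax, -1.31 for Nacc2, -1.09 for Btla, -1.04 for Itgam, -0.95 for S1pr1, -0.73 for Nt5e, -0.73 for Iigp1, -0.69 for Klrd1, -0.67 for Pmaip1 and -0.59 for Cxcr3. For Il10 the 2 steps had opposite signs, at 0.43 with 21h10 and -0.39 with mIL-21, and the latter did not pass.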

How the results depend on the processing

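The number of genes called in the 21h10 dose step was 734, and it was 1150 (446 higher) without the filter on low counts, 409 (128 higher, 281 lower) with limma on log2(RPKM + 1), 121 (65 higher, 56 lower) with a log2 fold change of at least 1 and 1553 (695 higher, 858 lower) when the compared groups were fitted alone. Of all calls 35.3% were higher, and 53.7% were with the fold limit. Leaving out 1 library gave 254 to 338 calls, 87 to 121 of them higher and 167 to 223 lower. The mIL-21 dose step gave 0 calls in every fit, those without 1 library included, except 14 without the filter. The difference between the dose steps passed for 223 genes with DESeq2, 257 without the filter, 63 with limma, 52 with the fold limit, 265 with the groups alone and 45 to 94 without 1 library, against 127. The deviations of same-numbered libraries from their group means correlated at -0.17 to 0.23 between groups, and at 0.06 for the 2 doses of 21h10. Noise of single libraries can lower such correlations, so whether the numbers pair the samples was not settled. With the replicate block the 21h10 step gave 823 calls, 729 of them shared, and of the genes named Tcf7 alone changed its call (adjusted p = 0.0409). For the difference it moved the count by less than 1.5 times. With mIL-21 at 100 nM alone, 62.3% of the genes that fell were higher than in unstimulated cells, against 72.6% with both doses. For the genes named, 997 values under alternatives kept direction and side of the threshold, 231 kept direction but no longer passed, 8 passed newly and 6 turned sign, the last in genes near 0. These were Cd27 (0.0049 with DESeq2, and -0.028 to 0.0078 over the fits without 1 library), Cd28 (-0.0024 to 0.055), Il21r (-0.15 to 0.016), Ifng (-0.019 to 0.19) and Nkg7 (-0.18 to 0.016). The cause was not tested. The comparison of promoter windows between called genes was not run, since the match of promoter entries was void.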

Other observations

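Il19, a neighbour of Il24 and Il10 in a cluster of IL-10 family genes on chromosome 1, was also called in the 21h10 step. It was chosen after its values were seen, and it lies below the least RPKM of the naming rule. Il19 was at 0.071 and 0.032 CPM at 10 nM and at 0.729 and 0.781 CPM at 100 nM (adjusted p = 0.0248), and in the mIL-21 libraries between 0.032 and 0.233 CPM. Syk, a kinase that B cells and myeloid cells use in place of Zap70, was chosen in the same way. Syk measured 0.570 and 0.548 CPM against 2.32 and 2.38 CPM (2.06, adjusted p = 0.00573), with 0.718 to 0.976 CPM in the mIL-21 libraries and 1.54 and 0.955 CPM in unstimulated cells. Neither Il19 nor Syk was among the stable calls.

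Csrnp1 was the 1 gene whose steps differed while the 21h10 step itself did not pass. It was at 31.5 and 32.6 CPM at 10 nM and 43.3 and 41.4 CPM at 100 nM of 21h10, and at 35.7 and 43.9 CPM and 29.7 and 30.2 CPM in the same steps of mIL-21. It was chosen after its values were seen.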
